A study of Mus musculus with 6 samples.

Results

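Fatty acid synthesis and desaturation genes were followed in mouse spleen after exposure to perfluorooctane sulfonate (PFOS), a persistent fluorinated surfactant. The set holds 10 genes, namely Acly, Acaca, Fasn, Me1, Srebf1, Scd1, Scd2, Elovl1, Elovl5 and Elovl6. Every probe set whose gene symbol in the platform annotation equals one of these names was taken, which gave 26 of the 45101 probe sets on the array and 10 of the 18193 genes named by a probe set with 1 symbol. All 10 genes had at least 1 probe set over the floor used for gene tests, a log2 value of 5.62. The 3 control spleens came from Balb/c mice aged 6 to 8 weeks that are labelled control. The 3 PFOS spleens came from Balb/c mice of the same age dosed by stomach tube for 3 weeks with PFOS at 10 mg/kg each day. The labels name a treatment only for the PFOS mice, and no genetic change in any mouse. Whole spleen was used, so fewer cells of a type and less RNA per cell cannot be told apart.

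Fatty acid synthesis turns citrate into saturated chains. ATP citrate lyase makes cytosolic acetyl-CoA, acetyl-CoA carboxylase makes malonyl-CoA, and fatty acid synthase joins them into palmitate with NADPH that malic enzyme helps to supply. Desaturases of the Scd family place the first double bond, desaturases of the Fads family act on polyunsaturated chains, and enzymes of the Elovl family lengthen chains. SREBP-1, the product of Srebf1, is the transcription factor best known for switching the pathway on in liver, and lymphocytes draw on it for membranes when they divide.

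Array medians of the RMA log2 values were 6.16 to 6.18. Pearson correlations over the genes tested were 0.9985 to 0.9991 between spleens of a group and 0.969 to 0.970 between spleens of different groups. All 6 mice are labelled female, and the arrays went against that label. Xist, which is made from the inactive X chromosome, was at 5.71 ± 0.13 (SD, n = 3) in control and 5.82 ± 0.06 in PFOS, near the floor. The Y-linked gene Eif2s3y was at 9.65 ± 0.04 and 9.83 ± 0.08, Kdm5d at 7.64 and 7.85, and Uty at 6.94 and 7.02. Spleen markers were present: the B cell gene Ms4a1 was at 12.29 in control and 12.75 in PFOS, and the red pulp macrophage gene Vcam1 at 12.27 and 12.95. Bacterial transcripts added to the RNA before labelling were lower in PFOS by 0.53 on the log2 scale (exact permutation p = 0.1, the smallest that 3 arrays against 3 allow). Over 24 probe sets their mean was 6.65 in control and 6.11 in PFOS, not far over the floor of 5.62, so scaling on them rests on low values. Transcripts added before hybridization had a mean of 10.00 in both groups and differed by -0.0015 (exact permutation p = 0.9).

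The 10 genes did not move as a block. Scd1, Scd2, Elovl5 and Acly rose, Acaca and Elovl1 fell, and Fasn, Srebf1, Me1 and Elovl6 did not pass the test. Both falls are relative to the array as a whole and turned into rises when arrays were scaled on the transcripts added before labelling. The changes ran from -0.23 to 0.43 on the log2 scale, and none reached 2-fold, a size that 0.0687% of all genes reached among the rises and 2.92% among the falls. Limma called 4 of the 10 genes higher and 2 lower at an adjusted p under 0.05, against 66.6% of all 13101 genes tested, 40.6% higher and 26% lower. The share called among these genes, 60%, thus lay near the background. Their median change was 0.04 beside 0.05 for all genes tested. Array values did not overlap between groups for 7 of the 10 genes, against a background of 71.1%.

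**Figure D1:**
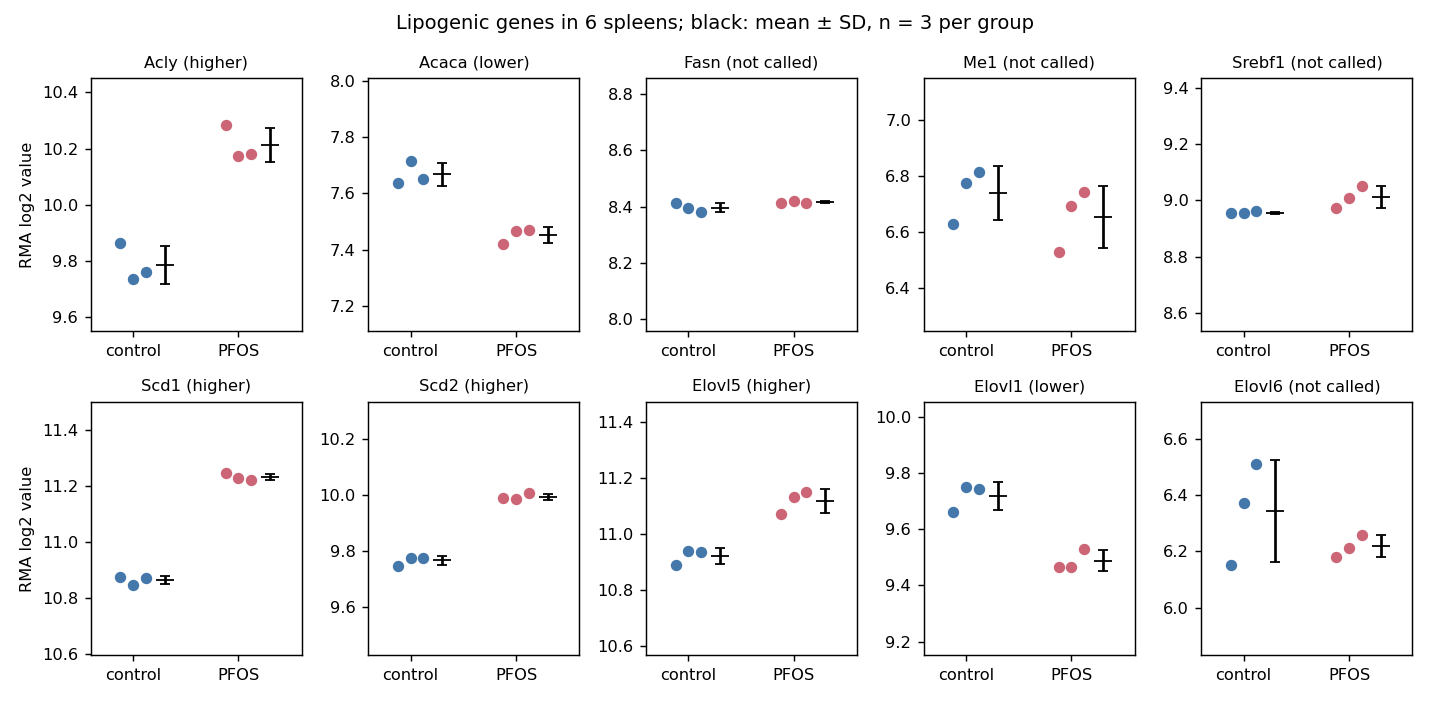
Each panel plots the RMA log2 value of 1 gene in 3 control and 3 PFOS spleens, with the mean and SD in black and an axis of equal length in all panels. Acly, Scd1, Scd2 and Elovl5 lie higher in all 3 PFOS spleens than in any control, and Acaca and Elovl1 lie lower, except with scaling on transcripts added before labelling.

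At the level of probe sets, limma was fitted over all 45037 non-control probe sets, of which it called 49.5%, with 30.2% higher and 19.3% lower. It called 17 of the 26 probe sets of these genes, 10 higher and 7 lower. Array values did not overlap for 21 of the 26, against 58.3% of all probe sets. That background includes every probe set under the floor. Among the genes tested, each read by a probe set over the floor, the share was 71.1%. Of the 26, 6 had a mean under the floor, where the background of the array sets much of the value. Of the 20 over the floor, 8 were higher, 5 lower and 7 not called. A fit on the 27022 probe sets over the floor alone called 63.5% of them, and of these 20 it called 8 higher and 6 lower. Among the 6 genes with more than 1 probe set over the floor, the probe sets had a common sign in 5, and the exception was Scd2.

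**Figure D2:**
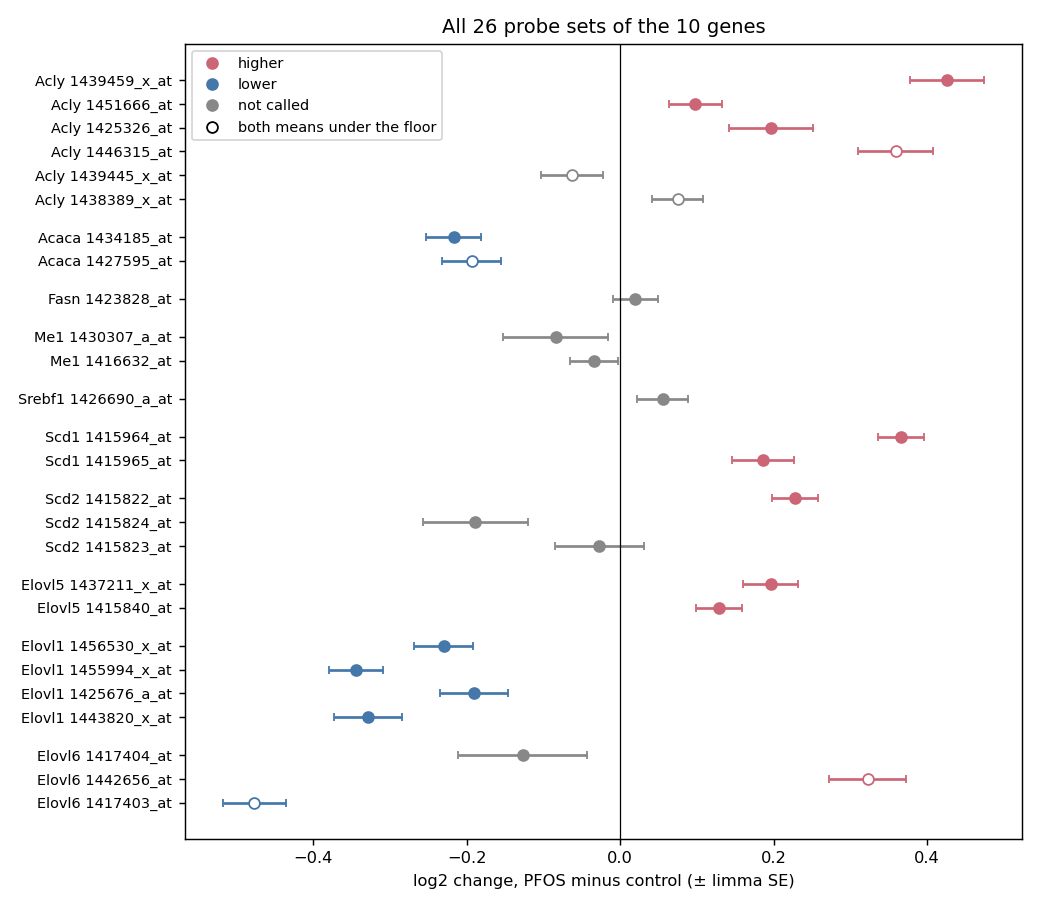
The log2 change of each of the 26 probe sets is shown with its limma SE, in red where called higher, blue where called lower and grey where not called. Open circles mark probe sets whose means in both groups lie under the floor, and all 4 Elovl1 probe sets lie left of 0, though not with scaling on transcripts added before labelling.

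RefSeq promoters of build GRCm38.p6, from 250 bases before to 50 bases after a start site, were matched by symbol for 8 of the 10 genes, with 12 promoters in all. None was listed for Scd1 or Scd2, so no motif was searched for these genes. Shown are those of Acly and Elovl5, which rose, of Elovl1, which fell, and of Fasn, which was not called. They let a reader set genes of opposite direction side by side. Capitals mark each match, on either strand, to CCAAT (the core bound by NF-Y), CACGTG (an E-box, bound by USF factors) and GGGCGG (bound by Sp1). Of 2 listed for Elovl1, the first is shown.
Acly promoter, minus strand, chr11:100527951-100528250: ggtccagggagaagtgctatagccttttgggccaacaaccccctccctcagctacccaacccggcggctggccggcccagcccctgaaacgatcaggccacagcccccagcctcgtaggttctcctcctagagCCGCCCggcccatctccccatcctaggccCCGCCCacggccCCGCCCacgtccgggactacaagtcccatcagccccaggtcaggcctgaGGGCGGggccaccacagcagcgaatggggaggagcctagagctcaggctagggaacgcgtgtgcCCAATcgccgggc
Elovl5 promoter, plus strand, chr9:77917115-77917414: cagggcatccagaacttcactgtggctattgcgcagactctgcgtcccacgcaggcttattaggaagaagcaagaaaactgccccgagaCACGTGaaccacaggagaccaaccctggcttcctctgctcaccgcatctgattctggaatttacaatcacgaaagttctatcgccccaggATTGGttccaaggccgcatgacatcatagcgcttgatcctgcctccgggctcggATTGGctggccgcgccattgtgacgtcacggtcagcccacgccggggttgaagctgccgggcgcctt
Elovl1 promoter, plus strand, chr4:118427843-118428142: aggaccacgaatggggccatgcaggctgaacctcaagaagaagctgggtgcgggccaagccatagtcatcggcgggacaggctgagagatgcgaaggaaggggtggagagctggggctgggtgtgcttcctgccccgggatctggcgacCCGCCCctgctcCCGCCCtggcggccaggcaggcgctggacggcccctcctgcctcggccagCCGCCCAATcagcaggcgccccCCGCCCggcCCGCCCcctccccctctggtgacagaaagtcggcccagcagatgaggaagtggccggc
Fasn promoter, minus strand, chr11:120824498-120824797: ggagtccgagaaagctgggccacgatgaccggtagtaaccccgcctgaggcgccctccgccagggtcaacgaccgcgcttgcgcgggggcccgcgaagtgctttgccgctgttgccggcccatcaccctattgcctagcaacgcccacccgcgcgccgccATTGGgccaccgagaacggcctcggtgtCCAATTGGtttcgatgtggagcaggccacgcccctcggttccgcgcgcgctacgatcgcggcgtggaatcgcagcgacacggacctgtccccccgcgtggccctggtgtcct

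CCAAT stood in 7 of the 12 promoters and in 37.4% of all 32851 promoters in the table. In the Fasn promoter it occurred 3 times, with the matches at -62 and -59 overlapping. In Elovl5 it occurred 2 times. In Elovl1 its match at -35 overlapped a GGGCGG match on the other strand. GGGCGG stood in 6 of the 12 promoters and in 35.7% of all. It matched 4 times in the Acly promoter and 5 times in the Elovl1 promoter shown, and so stood in a gene that rose and in a gene that fell. CACGTG stood in 1 of the 12 promoters, that of Elovl5, and in 7.15% of all. The antioxidant element core TGACNNNGC stood in 1 of the 12, a promoter of Me1, and in 12.4% of all. The letters of 4 further motifs were not in these windows. These were a sterol element (TCACNCCAC, in 1.24% of all promoters), an E-box of the class bound by SREBP-1 (TCACNTGA, in 4.18%), and repeats of AGGTCA spaced by 4 bases (in 0.0152%) or by 1 base (in 0.0396%). With G at its N, TCACNTGA contains CACGTG, so those motifs can overlap, and matches were counted on both strands.

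Acly, which supplies the pathway with cytosolic acetyl-CoA, had the largest change of the 10 by its leading probe set. With the mean over probe sets it changed by 0.24 beside 0.28 for Scd1, and without _x_at and similar probe sets by 0.10 beside 0.37 for Scd1. Its leading probe set (1439459_x_at) read 9.86, 9.73 and 9.76 in the controls and 10.28, 10.17 and 10.18 in the PFOS spleens. All PFOS values lay above all control values. The log2 change was 0.43 ± 0.04 (SE, n = 3 per group; limma adjusted p = 0.000115), or 1.34-fold, and 87.8% of genes tested changed by less. Probe sets of the _x_at class can share probe sequence with other transcripts. The probe sets 1451666_at and 1425326_at, which are not of that class, rose by 0.10 ± 0.03 (limma adjusted p = 0.049) and 0.20 ± 0.05 (limma adjusted p = 0.020). The direction of Acly was thus common to its 3 probe sets over the floor, with sizes from 0.10 to 0.43. Under the floor, 1446315_at was called higher at 0.36 ± 0.05, while 1439445_x_at (-0.06) and 1438389_x_at (0.07) were not called.

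Acaca, the cytosolic acetyl-CoA carboxylase that commits carbon to chain building, fell on the deposited scale and rose on that of the labelling transcripts. Its values were 7.64, 7.71 and 7.65 in control and 7.42, 7.46 and 7.47 in PFOS, with no overlap. The log2 change was -0.22 ± 0.03 (limma adjusted p = 0.000497), or 1.16-fold lower. Its other probe set lay under the floor and changed by -0.19 ± 0.04 (limma adjusted p = 0.0046). Acacb, the isoform at the outer mitochondrial membrane that restrains fatty acid oxidation, read 7.05 ± 0.07 in control and 7.15 ± 0.03 in PFOS (SD, n = 3) and was not called (log2 change 0.09 ± 0.04, limma adjusted p = 0.067).

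Fasn, the multidomain synthase itself, stayed within a narrow band. It read 8.41, 8.39 and 8.38 in control and 8.41, 8.42 and 8.41 in PFOS. The groups overlapped, and the difference of 0.02 had a 95% interval from -0.03 to 0.07 (limma adjusted p = 0.465). Only 7.11% of genes tested changed by less. Me1, the cytosolic malic enzyme and also a target of the oxidant sensor NRF2, read 6.63, 6.77 and 6.81 in control and 6.53, 6.69 and 6.74 in PFOS. Its groups overlapped as well, with a difference of -0.08 ± 0.07 (95% interval from -0.24 to 0.07, limma adjusted p = 0.294). A second Me1 probe set differed by -0.03 ± 0.03 and was not called.

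Both stearoyl-CoA desaturases passed the test as higher. Scd1, the main delta-9 desaturase of liver and fat, read 10.88, 10.85 and 10.87 in control and 11.24, 11.23 and 11.22 in PFOS. The 3 values within each group lay close together and the groups stood apart, with a log2 change of 0.37 ± 0.02 (limma adjusted p = 7.58e-06), or 1.29-fold. Its other probe set rose by 0.19 ± 0.04 (limma adjusted p = 0.0072). Of the genes tested, 83.9% changed by less than Scd1.

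Scd2, the isoform best known from brain and early development, read 9.75, 9.78 and 9.77 in control and 9.99, 9.99 and 10.01 in PFOS (log2 change 0.23 ± 0.02, limma adjusted p = 9.23e-05). The groups did not overlap. Its other 2 probe sets, 1415824_at and 1415823_at, lay just over the floor and had the opposite sign, at -0.19 ± 0.07 (limma adjusted p = 0.052) and -0.03 ± 0.06 (limma adjusted p = 0.718). With the mean over its probe sets, the change of Scd2 was 0.0037 and the call was lost (limma adjusted p = 0.924). The rise of Scd2 therefore rests on the probe set 1415822_at. Scd1 and Scd2 are close paralogs, and whether their probe sets read each other was not tested.

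Fads1, Fads2 and Fads3 went the other way on the deposited scale. Fads1, the delta-5 desaturase of polyunsaturated fatty acids, read 8.94, 8.95 and 8.93 in control and 8.35, 8.32 and 8.28 in PFOS, a fall of 0.63 ± 0.03 on the log2 scale (limma adjusted p = 1.06e-06). Fads2, the delta-6 desaturase, changed by -0.52 ± 0.03 (limma adjusted p = 4.42e-06), and Fads3, a desaturase of the same cluster that acts on sphingoid bases, by -1.20 ± 0.05 (limma adjusted p = 5.68e-07). All 3 PFOS values lay below all control values for each of these genes. A second probe set of Fads3 changed by -0.80 ± 0.03, and a second probe set of Fads2 by -0.32 ± 0.04, also called lower. The remaining probe sets of Fads2 (-0.11) and Fads1 (-0.09) were not called. In the list of other desaturation enzymes limma called 5 of 7 tested genes lower and 2 higher, and the median change was -0.52. Among them Cyb5a, the cytochrome that passes electrons to microsomal desaturases, changed by -0.52 ± 0.02, and its relative Cyb5b by 0.17 ± 0.02. The reductase Cyb5r3 changed by -0.15 ± 0.02. Of its other probe sets, 2 were called lower, at -0.33 and -0.45, and 1 higher, at 0.19. Fads6, of less known function, rose by 0.10 ± 0.03, from a control mean of 5.59, under the floor, to 5.69 in PFOS. Its call as higher thus rests on values at the floor. Without probe sets ending in _s_at, _x_at or _a_at, 3 of 6 tested were lower and 3 higher.

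**Figure D3:**
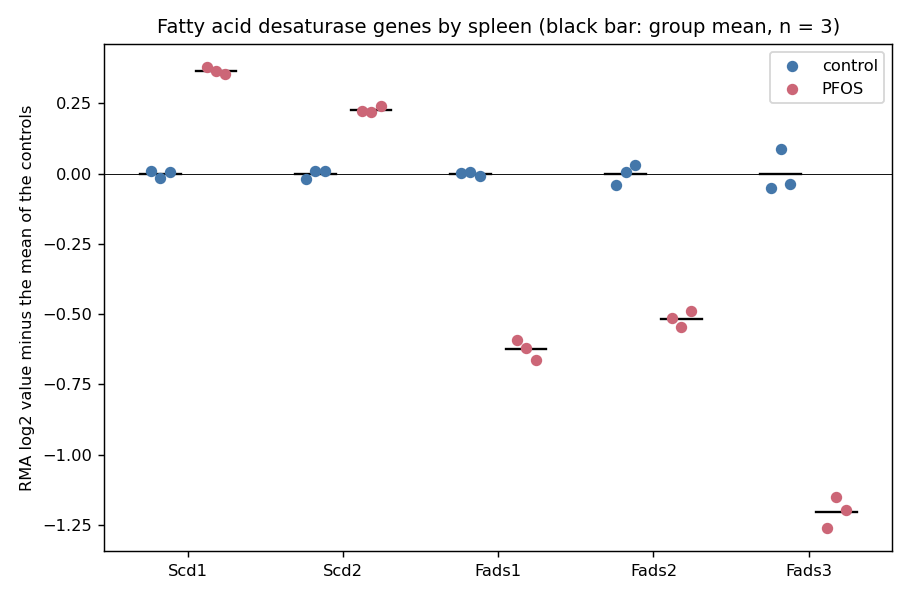
Values of 5 desaturase genes in each spleen are drawn on the log2 scale as the distance from the mean of the controls, with group means as black bars. The PFOS spleens lie above the controls for Scd1 and Scd2 and below them for Fads1, Fads2 and Fads3, with Fads3 lowest at -1.20. Scaled on transcripts added before labelling, Fads2 was at 0.02.

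The elongases split by member. Elovl5, which lengthens polyunsaturated chains, read 10.89, 10.94 and 10.94 in control and 11.07, 11.13 and 11.15 in PFOS. It rose by 0.20 ± 0.03 (limma adjusted p = 0.000873), and its other probe set by 0.13 ± 0.03 (limma adjusted p = 0.0093). Elovl1, which makes very long saturated and monounsaturated chains for sphingolipids, read 9.66, 9.75 and 9.74 in control and 9.47, 9.47 and 9.53 in PFOS. The groups did not overlap, and the log2 change was -0.23 ± 0.03 (limma adjusted p = 0.000691). The other 3 Elovl1 probe sets changed by -0.34 ± 0.04, -0.19 ± 0.04 and -0.33 ± 0.04, and all 4 were called lower on the deposited scale, while none was negative on that of the labelling transcripts. All 4 are of the _x_at or _a_at class, whose probes can be shared between transcripts, and without such probe sets Elovl1 was not measured.

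Elovl6, which carries palmitate on to stearate, was the least settled member. It read 6.15, 6.37 and 6.51 in control and 6.18, 6.21 and 6.26 in PFOS, so the controls spread over the whole PFOS range. The difference of -0.13 ± 0.08 was not called (95% interval from -0.32 to 0.07, limma adjusted p = 0.209). Without control replicate 1, the lowest control, it was -0.22 and called lower (limma adjusted p = 0.0073). Its other 2 probe sets lay under the floor and were called in opposite directions, 1417403_at at -0.48 ± 0.04 and 1442656_at at 0.32 ± 0.05. No direction is given for Elovl6.

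In the list of other elongation enzymes, limma called 3 of 7 tested genes higher and 3 lower, and the median change was -0.02. Hacd1, a dehydratase of the elongation cycle, fell from 9.13 ± 0.01 to 8.18 ± 0.03 (SD, n = 3; log2 change -0.95 ± 0.02, limma adjusted p = 8e-08), and its other probe set changed by -0.82 ± 0.04. Hacd3 changed by -0.19 ± 0.02, and Hacd2 by -0.14 ± 0.03 with a second probe set called higher at 0.27. Elovl7, an elongase of saturated chains, rose by 0.28 ± 0.04 and Hsd17b12, the ketoacyl reductase of the cycle, by 0.23 ± 0.03, while its second probe set differed by -0.07. Tecr, the last enzyme of the cycle, rose by 0.07 ± 0.02, and its second probe set differed by -0.07. Elovl2, Elovl3 and Elovl4 lay under the floor.

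Srebf1 read 8.95, 8.96 and 8.96 in control and 8.97, 9.01 and 9.05 in PFOS. All PFOS values lay above all control values, yet the difference of 0.06 ± 0.03 did not pass (95% interval from -0.01 to 0.12, limma adjusted p = 0.113). Without PFOS replicate 1 it was 0.07 and passed (limma adjusted p = 0.044). Srebf2, the paralog that directs sterol synthesis, differed by 0.08 ± 0.04 and was not called (limma adjusted p = 0.073). An array measures the Srebf1 transcript and not the cleaved, active protein.

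Of the 6 genes for SREBP processing, limma called 4 higher and 0 lower, with 0 lower at an unadjusted p under 0.05 and a median of 0.12. Mbtps2, the site-2 protease that releases SREBP from the membrane, read 8.04, 8.19 and 8.15 in control and 8.52, 8.57 and 8.54 in PFOS, a rise of 0.41 ± 0.04 (limma adjusted p = 8.01e-05). The site-1 protease Mbtps1 (0.13 ± 0.03) and the retention factor Insig2 (0.17 ± 0.03) were also called higher, but each had a second probe set called lower, at -0.25 and -0.13. Insig1, a target of SREBP as well as its retention factor, rose by 0.11 ± 0.03, and the escort protein Scap differed by -0.03 ± 0.03. With arrays scaled on ribosomal protein genes, 2 of the 6 were higher and 1 lower.

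Among 18 other regulators tested, limma called 7 higher and 6 lower (median change 0.02), but 16 higher and 1 lower with scaling on transcripts added before labelling. Pparg, the adipogenic nuclear receptor, rose by 0.29 ± 0.03 from a control mean of 6.00, and Nr1h3, the oxysterol receptor LXR-alpha that drives Srebf1 in liver, by 0.23 ± 0.04. The E-box factor Usf1 rose by 0.26 ± 0.04, with a second probe set called lower at -0.11. Subunits of AMPK, the kinase that inhibits acetyl-CoA carboxylase, were among the falls: Prkab1 changed by -0.71 ± 0.03 and Prkag1 by -0.28 ± 0.03 (0.26 on the labelling scale). Stk11, which encodes the AMPK kinase LKB1, changed by -0.58 ± 0.03, and the NF-Y subunit Nfyb by -0.38 ± 0.04 (0.16 on the labelling scale). Mlxipl, which encodes the carbohydrate-sensing factor ChREBP, had a mean under the floor.

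Around the core enzymes, limma called 5 of 12 tested genes of carbon and NADPH supply higher and 5 lower (median change 0.01). Acss2, which makes acetyl-CoA from acetate beside Acly, read 7.25, 7.30 and 7.29 in control and 6.70, 6.65 and 6.63 in PFOS, a fall of 0.62 ± 0.03 on the log2 scale (limma adjusted p = 1.64e-06). The other Acss2 probe set changed by -1.20 ± 0.11 (limma adjusted p = 8.37e-05). Pcx, the mitochondrial pyruvate carboxylase, changed by -0.68 ± 0.06 and the mitochondrial acetate enzyme Acss1 by -0.36 ± 0.03. Idh1, the cytosolic isocitrate dehydrogenase that yields NADPH, rose by 0.31 ± 0.03, Pgd of the pentose phosphate pathway by 0.21 ± 0.04, and the pyruvate carrier subunit Mpc1 by 0.10 ± 0.03. With arrays scaled on ribosomal protein genes, 2 were higher and 6 lower, and with scaling on transcripts added before labelling 10 were higher and 1 lower.

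Of 5 tested genes close to carboxylase and synthase, 2 were higher and 1 lower. Mid1ip1, which helps acetyl-CoA carboxylase to form filaments, changed by -0.22 ± 0.03, and Mlycd, which destroys malonyl-CoA, by 0.16 ± 0.03. Thrsp, the Spot 14 protein of lipogenic tissue, was called higher by its leading probe set (0.36 ± 0.04) and lower by another (-0.73 ± 0.03), and the mean over its probe sets changed by -0.11. Over all 78 other pathway genes tested, of 93 listed, 32 were higher and 27 lower, or 75.6% called beside 66.6% of all genes tested.

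**Figure D4:**
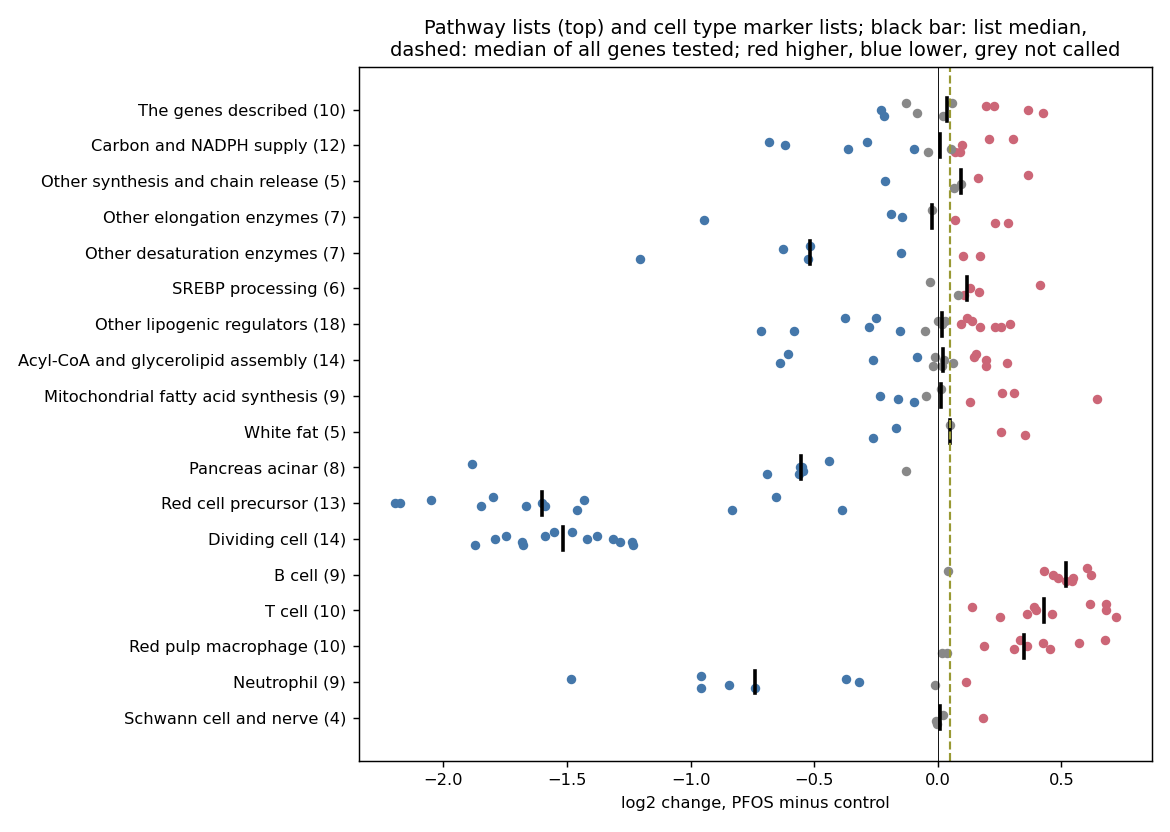
Points are log2 changes of single genes in the 10 genes described, in 8 lists of other pathway genes and in lists of cell type markers, with the number of genes tested in brackets, the list median as a black bar and the median of all genes as a dashed line. The hepatocyte list, with a median of -3.48, lies beyond the axis and is left out, and brown fat has no gene over the floor.

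Changes of related members were also compared within arrays for 8 pairs, with an exact two-sided permutation test that cannot go below p = 0.1 before adjustment. The difference between the changes of Elovl1 and Elovl5 was -0.43 ± 0.02 (SE, n = 3 per group; exact p = 0.1, adjusted 0.133). That between Fasn and Acly was -0.41 ± 0.05, between Fasn and Scd1 -0.35 ± 0.01, and between Acaca and Acacb -0.31 ± 0.04. Elovl5 and Elovl6 differed by 0.32 ± 0.09, and Scd1 rose by 0.14 ± 0.02 more than Scd2. In each of these 6 pairs the PFOS arrays lay apart from the controls, with the same exact p of 0.1. Elovl1 and Elovl6 differed by -0.10 ± 0.08 (exact permutation p = 0.4), and Srebf1 and Srebf2 by -0.03 ± 0.03 (exact permutation p = 0.6). None of the 8 pairs can pass at 0.05 in this design.

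Markers of several cell types moved in the same arrays. All 20 hepatocyte markers were lower, with Alb at -5.15 and Fga at -5.02, and their summed linear level was 9558 to 9572 in control and 837.8 to 907.9 in PFOS. Only 5 of the 20 lay over the floor on every array. In PFOS the mean of Alb was 5.87, near the floor, and that of Fga 3.59, under it. All 13 red cell precursor markers (Cldn13 -2.20, Kel -2.18) and all 14 markers of dividing cells (Ccnb2 -1.87, Birc5 -1.79) were lower too, with sums of 48510 to 49110 against 20720 to 20820 and of 35890 to 36070 against 12550 to 12620. Lymphoid and macrophage markers were higher: 8 of 9 for B cells (Cd79a 0.62, Cr2 0.60), 10 of 10 for T cells (Bcl11b 0.72, Cd3d 0.68) and 8 of 10 for red pulp macrophages (Vcam1 0.68, Spic 0.57). Their sums were 13890 to 14010 against 19440 to 19580, 5698 to 5760 against 8463 to 8563, and 15360 to 15680 against 20670 to 20920. Limma called 7 of 8 tested pancreas markers lower (Clps -1.88, Ctrb1 -0.69), with sums of 1579 to 1621 against 922.2 to 985.9. Among 9 neutrophil markers it called 7 lower and 1 higher (Lcn2 -1.48, Ltf -0.96), with sums of 5840 to 5938 against 4054 to 4155. The rises of Scd1, Scd2, Elovl5 and Acly (0.20 to 0.43) stood beside medians of 0.52 for B cells, 0.43 for T cells and 0.35 for red pulp macrophages. Scaled on transcripts added before labelling, the pancreas list had 1 higher and 2 lower, the neutrophil list 4 higher and 5 lower, the hepatocyte list 1 higher and 19 lower, and the red cell precursor list 1 higher and 12 lower. The part of any cell type in the changes of the 10 genes was not tested.

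Fat is another tissue rich in these enzymes. Of 10 white fat markers with a probe set, 5 lay over the floor on every array and 5 under it on every array, among the latter the defining genes Adipoq and Lep. The summed level of the list was 3999 to 4169 in control and 3673 to 3760 in PFOS, and of 5 tested genes 2 were higher (Fabp4 0.35) and 2 lower (Cd36 -0.26). Of 5 brown fat markers, 4 lay under the floor on every array, with sums of 149.9 to 162.1 and 156.5 to 174.0. Of 4 tested Schwann cell and nerve markers, 1 was higher (Pmp22 0.18), with sums of 1133 to 1136 and 1165 to 1178.

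The direction of some members depended on how the arrays were scaled. Scaling on the transcripts added before labelling shifts every gene by 0.53, which takes the median of all genes to 0.59. All 10 members were then called higher, with Acaca at 0.32 and Elovl1 at 0.30 the smallest values. On that scale Fads1 (-0.09), Fads3 (-0.67), Hacd1 (-0.41), Pcx (-0.15), Prkab1 (-0.18) and Lpin2 (-0.10) were still called lower. Fads2 (0.02) and Cyb5a (0.01) were not called, and Acss2 (-0.08), Lpcat3 (-0.07) and Stk11 (-0.05) lost the call. The list of other desaturation enzymes then had 3 higher and 2 lower, and that of other elongation enzymes 6 higher and 1 lower. The falls of Acss1 (0.17), Acsl5 (0.27), Hacd2 (0.39), Hacd3 (0.35), Mid1ip1 (0.32) and Cyb5r3 (0.38) turned into rises. These are values of leading probe sets. On the deposited scale, other probe sets of Fads1 (-0.09) and Prkab1 (-0.24) fell by less than the shift of 0.53. Those of Acss2 (-1.20), Fads3 (-0.80) and Hacd1 (-0.82) fell by more, and those of Lpin2 were at -0.76, -0.82 and -0.47. Scaling on ribosomal protein genes moved the change of Fasn to -0.049 and of Srebf1 to -0.013, neither of them called. Scd1, Scd2, Elovl5 and Acly were called higher under each of the 6 scalings.

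**Figure D5:**
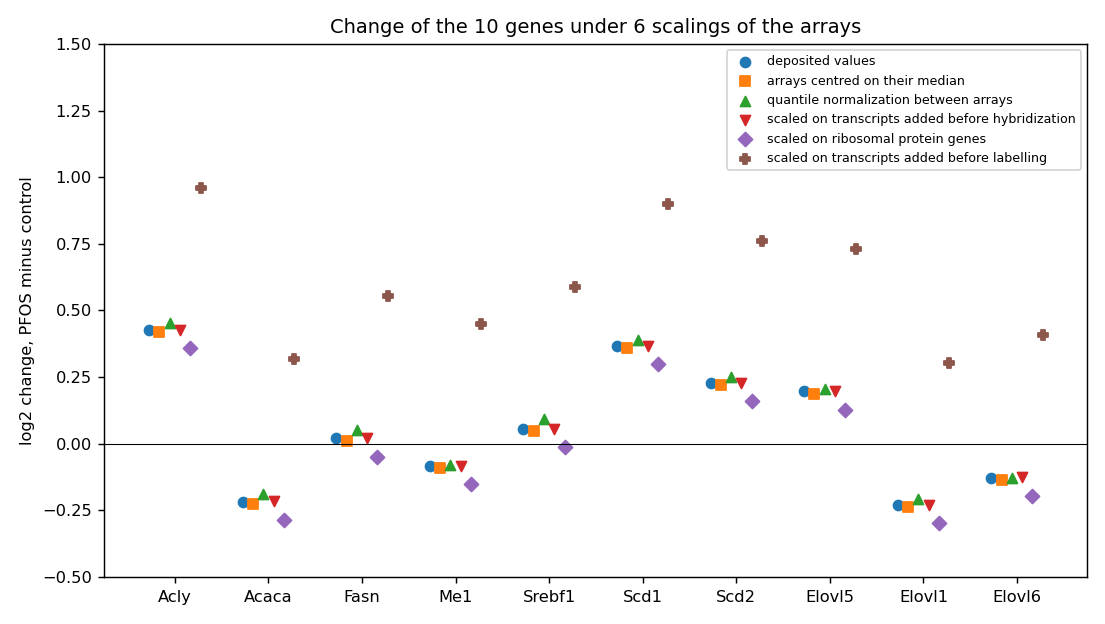
The log2 change of each of the 10 genes is shown under 6 scalings of the arrays. Values under the first 5 lie close together, and those scaled on transcripts added before labelling lie higher by 0.53 for every gene.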

How the data were processed

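Each of the 6 spleens was hybridized to 1 Affymetrix Mouse430_2 array. The authors deposited log2 values made with RMA, per the submitters' processing notes; the sources used here do not give its version, chip definition or filters. RMA equalizes the distributions of the arrays, so a change is relative and not an amount per cell. Of 45101 probe sets, 64 array controls, 932 with several gene symbols and 9160 with none were left out of gene tests. So were those with a mean under the 40th percentile (5.62). The probe set with the highest mean stood for its gene. Groups were compared with limma 3.58.1 (lmFit, eBayes) in R 4.3.3. Two-sided p-values were adjusted by Benjamini-Hochberg over the whole gene table, or over all 45037 probe sets, with calls under 0.05; SE is limma's. The procedure was tested on simulated data. The labels call the mice biological replicates, so p-values measure the spread between these samples, which may be technical, and 3 arrays per group limit the precision. Motifs were searched in RefSeq promoters of GRCm38.p6. The genes and lists were chosen with earlier results of these data known. The text names all probe sets of the 10 genes, up to 3 rises and 3 falls per pathway list, 2 genes per marker list, the partners of compared pairs and the sex check genes; Ms4a1, Adipoq, Lep, Fads2, Cyb5r3, Elovl2, Elovl3, Elovl4, Prkag1, Insig1, Scap and Mlxipl were added after their values were seen.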

Additional observations from a re-analysis of the deposited data

How the results depend on the processing

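Over 20 alternative settings, 196 changes of single members were recomputed: 182 kept their direction and their side of the threshold, 1 lost its call, 7 gained one and 6 turned direction. Scaling on the transcripts added before labelling gave 10 members higher and 0 lower (0 with a negative change), 25 probe sets higher and 0 lower, and a median change of 0.57. It turned Elovl1 to 0.30, Acaca to 0.32, Me1 to 0.45 and Elovl6 to 0.41. Scaling on ribosomal protein genes gave 6 probe sets higher and a median of -0.031, and turned Srebf1 to -0.013 and Fasn to -0.049. It lowered the share of all calls that were higher from 61.0% to 44.1%, and scaling on the labelling transcripts raised it to 94.3%. Without _s_at, _x_at and _a_at probe sets, 1 member and 3 probe sets were lower, since 8 members and 16 probe sets were then measured, and Acly rose by 0.10. A floor at the 60th percentile left 8 members with a median of 0.13, since 2 members fell under it. Leaving out each array gave 4 to 5 members higher and 2 to 3 lower, 8 to 9 probe sets higher and 7 to 8 lower, and medians of 0.03 to 0.05. Srebf1 also passed with quantile normalization (limma adjusted p = 0.030) and array weights (0.044). With the replicate number as a block (replicate block), 4 members were higher and 3 lower, as Me1 was called (limma adjusted p = 0.019). The block raised the share of all genes called from 66.6% to 69.1%. Deviations of same-numbered arrays correlated at 0.32, 0.14 and 0.097, and control replicate 3 correlated best with PFOS replicate 2, at 0.13. The numbers were therefore not taken as pairs, but these values do not exclude a pairing. Levels near the floor, as for Elovl6 and 2 Scd2 probe sets, limit what the arrays can show.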

Other observations

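Enzymes that use the finished acyl chains were measured in the same arrays. Among 14 tested genes of acyl-CoA and glycerolipid assembly, limma called 5 higher and 4 lower (median change 0.02). Dgat1 and Dgat2, the enzymes that close triglyceride synthesis, rose by 0.28 ± 0.04 and 0.19 ± 0.04, and a second probe set of Dgat1 was not called. Agpat3, an acyltransferase of phospholipids, rose by 0.19 ± 0.03, with another probe set called lower at -0.31. The phosphatidate phosphatase Lpin2 read 10.30 ± 0.04 in control and 9.66 ± 0.03 in PFOS (SD, n = 3), a change of -0.64 ± 0.03 (limma adjusted p = 1.92e-06). The sign was the same in its other 3 probe sets. Lpcat3, which inserts polyunsaturated chains into phospholipids, changed by -0.61 ± 0.03 (limma adjusted p = 4.22e-06), and the acyl-CoA synthetase Acsl5 by -0.26 ± 0.02. With scaling on transcripts added before labelling, 12 of the 14 were higher and 1, Lpin2, lower.

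Mitochondria build short acyl chains on a route of their own, which feeds lipoic acid. Limma called 4 of its 9 tested genes higher and 3 lower (median change 0.01), and all 9 higher with scaling on transcripts added before labelling, which turned the falls below. Cbr4, part of the ketoacyl reductase, rose from 7.08 ± 0.02 to 7.72 ± 0.06 (SD, n = 3; log2 change 0.64 ± 0.04, limma adjusted p = 3.76e-06). Lipt1, a lipoyl transferase, rose by 0.31 ± 0.06 and the synthase Oxsm by 0.26 ± 0.04. The carrier protein Ndufab1, also a subunit of respiratory complex I, changed by -0.23 ± 0.03, the reductase Mecr by -0.16 ± 0.04 and the malonyl-CoA synthetase Acsf3 by -0.10 ± 0.03.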
